A study of Rattus norvegicus with 6 samples.

Results

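The collagen genes were followed in cultured neonatal rat ventricular myocytes (NRVM) exposed to compound 915 or to its solvent. They were taken as every gene of the count table whose symbol is Col, a type number, the letter a and a chain number, with 1 row per Ensembl identifier. This gave 39 of 21648 genes: 7 fibrillar collagens, 6 basement membrane collagens, 6 chains of the beaded filament collagen VI, 8 fibril-associated collagens with interrupted triple helices (FACIT) and 12 genes of other types. A Col1a2 row carries the placeholder symbol NEWGENE_621351 (ENSRNOG00000011292) and is described in the table as the alpha 2 chain of type I collagen, so it falls outside the symbol rule and is given separately. Col2a1, Col4a6, Col10a1, Col12a1, Col15a1 and Col21a1 were not analysed here.

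The 915 group received 10 µM 915, which the submitters call an agonist of the estrogen-related receptors (ERR), for 72 h, and the DMSO group received the same volume of solvent for 72 h. Each group holds 3 libraries of total RNA. All cells were wild type, came from rat pups at postnatal day 3 (P3), and shared the same handling: trypsin and collagenase digestion, 90 min of pre-plating on plastic so that fibroblasts attach and stay behind, plating with 10% serum and 100 µM bromodeoxyuridine, and a change to medium with insulin, transferrin and selenium 2 days after seeding. Pre-plating lowers the number of fibroblasts but does not remove them all, and the pups behind each library, pooled or not, are not given. The labels speak of biological replicates but not of separate isolations, so each p-value reflects only how far these libraries scatter, and part of that scatter may be technical. The count table held 30639244 to 38078137 counts per 915 library and 36799845 to 40010826 per DMSO library.

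Collagens are secreted proteins built of 3 chains wound into a triple helix. The combination of chains is not fixed in every type: collagens IV, V and VI can each be built from alternative chains. Fibrillar collagens give the heart wall its tensile strength and are made mainly by cardiac fibroblasts. Collagen IV forms the sheet of the basement membrane around every myocyte and vessel, collagen VI forms beaded microfibrils next to it, and FACIT collagens sit on the surface of fibrils. Transforming growth factor beta is the best known inducer of fibrillar collagen genes in the heart.

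Most collagen transcripts were lower with 915. Of 37 collagen genes with enough counts to be tested, 29 fell, 1 rose (Col23a1) and 7 did not pass the test, which was edgeR's quasi-likelihood test with an adjusted p under 0.05 over 14253 genes. Among all genes tested, 25.5% fell and 24.3% rose. A fall of at least 2-fold was called for 12 collagen genes, against 6.90% of all genes. The 915 libraries all lay below the DMSO libraries, with no overlap, for 31 of the 37 collagen genes, against 32.8% of all genes tested. The groups overlapped for Col4a2, Col18a1, Col19a1, Col17a1 and Col25a1. The median log2 fold change was -0.85 over the tested collagen genes and -0.01 over all genes tested. Levels below are deposited CPM values, which put all libraries on 1 common total, and log2 fold changes are the fitted difference of 915 over DMSO, which also rescales library totals, so the fold differs slightly from the ratio of CPM means. Values compare a gene between groups. They do not rank genes against each other, because gene lengths were not used.

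Without the Col1a2 row, collagen transcripts made up 1.82% ± 0.0820 of the library total behind the CPM values with 915. With DMSO they made up 3.23% ± 0.108 (SD, n = 3 each). With the Col1a2 row these shares were 2.06% ± 0.0897 with 915 and 3.67% ± 0.121 with DMSO. The summed level without that row was 18219, 17379 and 19018 CPM in 915 libraries 1 to 3. It was 33505, 31484 and 31849.6 CPM in DMSO libraries 1 to 3, so every 915 library lay below every DMSO library. The ratio of the means was 1.77-fold lower with 915, and adding the Col1a2 row gave 1.78-fold. This sum is carried mostly by a few abundant genes and had no test of its own.

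**Figure D1:**
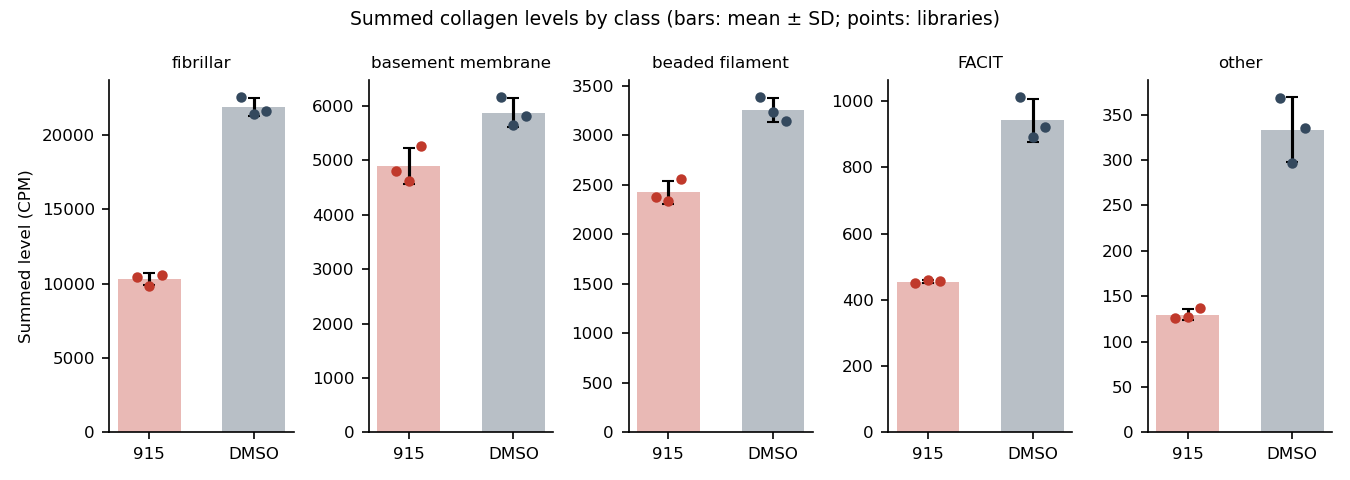
Summed level (CPM) of the collagen genes of each class in 915 and DMSO cultures. Bars are means, error bars the SD and points the 3 libraries of each group. In all 5 classes the 915 libraries lie below the DMSO libraries, with the means 2.12-fold lower for fibrillar and 1.20-fold lower for basement membrane collagens. The Col1a2 row is not included.

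The classes differed in the size of their summed change, as a description without a test. The fibrillar sum, without the Col1a2 row, was 10301 ± 407 CPM with 915 and 21878 ± 608 CPM with DMSO, which is 2.12-fold lower. The basement membrane sum was 4897 ± 334 CPM with 915 and 5874 ± 268 CPM with DMSO, 1.20-fold lower. The collagen VI sum was 2422 ± 116 CPM with 915 and 3253 ± 123 CPM with DMSO, 1.34-fold lower. The FACIT sum was 2.07-fold lower and that of the other types 2.57-fold lower. Among the other types, Col8a1 and Col8a2 carried most of the difference: together they summed to 75.4 ± 1.03 CPM with 915 and 255 ± 30.5 CPM with DMSO, and the remaining 10 genes to 54.4 ± 5.00 CPM with 915 and 78.9 ± 5.72 CPM with DMSO, 1.45-fold lower. As shares of the collagen reads without the Col1a2 row, fibrillar genes took 56.6% ± 0.828 with 915 and 67.8% ± 0.372 with DMSO. Basement membrane genes took 26.9% ± 0.704 with 915 and 18.2% ± 0.244 with DMSO, and collagen VI genes 13.3% ± 0.239 with 915 and 10.1% ± 0.194 with DMSO. The collagen reads of the 915 cultures thus held a smaller fibrillar part and larger basement membrane and beaded filament parts, with no overlap between libraries in any of these shares.

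The tissue label and the other cell types were read from marker genes. All 9 measured cardiac myocyte markers rose with 915, and their summed level was 28551 to 28826 CPM with 915 and 20499 to 21625 CPM with DMSO. Fibroblast transcripts were present in both groups: their 12 markers outside the collagens summed to 3401 to 3560 CPM with 915 and 4497 to 4577 CPM with DMSO. Of those 12 markers 7 fell, 3 rose and 2 did not pass. Thy1, a surface glycoprotein of fibroblasts, was at 3.43, 5.41 and 3.52 CPM in 915 libraries and 24.4, 24.6 and 21.2 CPM in DMSO libraries. Vim, the intermediate filament vimentin, was at 705 ± 7.61 CPM with 915 and 1733 ± 8.87 CPM with DMSO, 2.38-fold lower. The 3 fibroblast markers that rose were Dcn (decorin), Pdgfra, a growth factor receptor (129 ± 3.69 CPM with 915 and 110.1 ± 1.96 CPM with DMSO), and Fbln1, fibulin (249 ± 10.3 CPM with 915 and 222 ± 9.42 CPM with DMSO). Those that did not pass were Postn, periostin (1597 ± 52.5 CPM with 915 and 1606 ± 22.7 CPM with DMSO), and Pdpn, podoplanin (64.4 ± 1.85 CPM with 915 and 65.0 ± 4.37 CPM with DMSO). These fibroblast genes were named after their values were seen. Smooth muscle and pericyte markers summed to 776 to 831 CPM with 915 and 1901 to 2052 CPM with DMSO, and 6 of 8 fell. Macrophage and leukocyte markers summed to 109 to 132 CPM with 915 and 214 to 231 CPM with DMSO, and 5 of 9 fell. Of endothelial markers 4 of 9 fell and Kdr, a growth factor receptor, rose, and their sum was 64.8 to 66.0 CPM with 915 and 77.9 to 81.6 CPM with DMSO. Epicardial markers, 4 of 5 lower, summed to 29.8 to 31.4 CPM with 915 and 53.1 to 57.0 CPM with DMSO. Schwann cell markers, 3 of 5 lower, summed to 22.1 to 23.5 CPM with 915 and 32.4 to 33.9 CPM with DMSO. Cartilage markers, of which Acan (aggrecan) fell and the other 3 did not pass, summed to 18.97 to 21.1 CPM with 915 and 21.4 to 22.97 CPM with DMSO. None of these markers was at 0 in all libraries. In CPM, the fall of the fibroblast sum was about the size of that of Vim alone. The other fibroblast markers summed to nearly equal levels, but abundant genes such as Postn carry that sum. Beside Thy1 and Vim, Mfap5 (2.98-fold), Fap (1.58-fold), Ddr2 (1.46-fold), Lum (1.44-fold) and Tcf21 (1.34-fold) were lower. These too were named after their values were seen. The median log2 fold change over the 12 markers was -0.47. The summed marker levels of the types other than myocytes were thus lower with 915. Those of myocytes were higher, and single markers went either way. Their part in the collagen result was not tested. In such bulk RNA, fewer cells of a type and less collagen RNA per cell cannot be told apart.

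**Figure D2:**
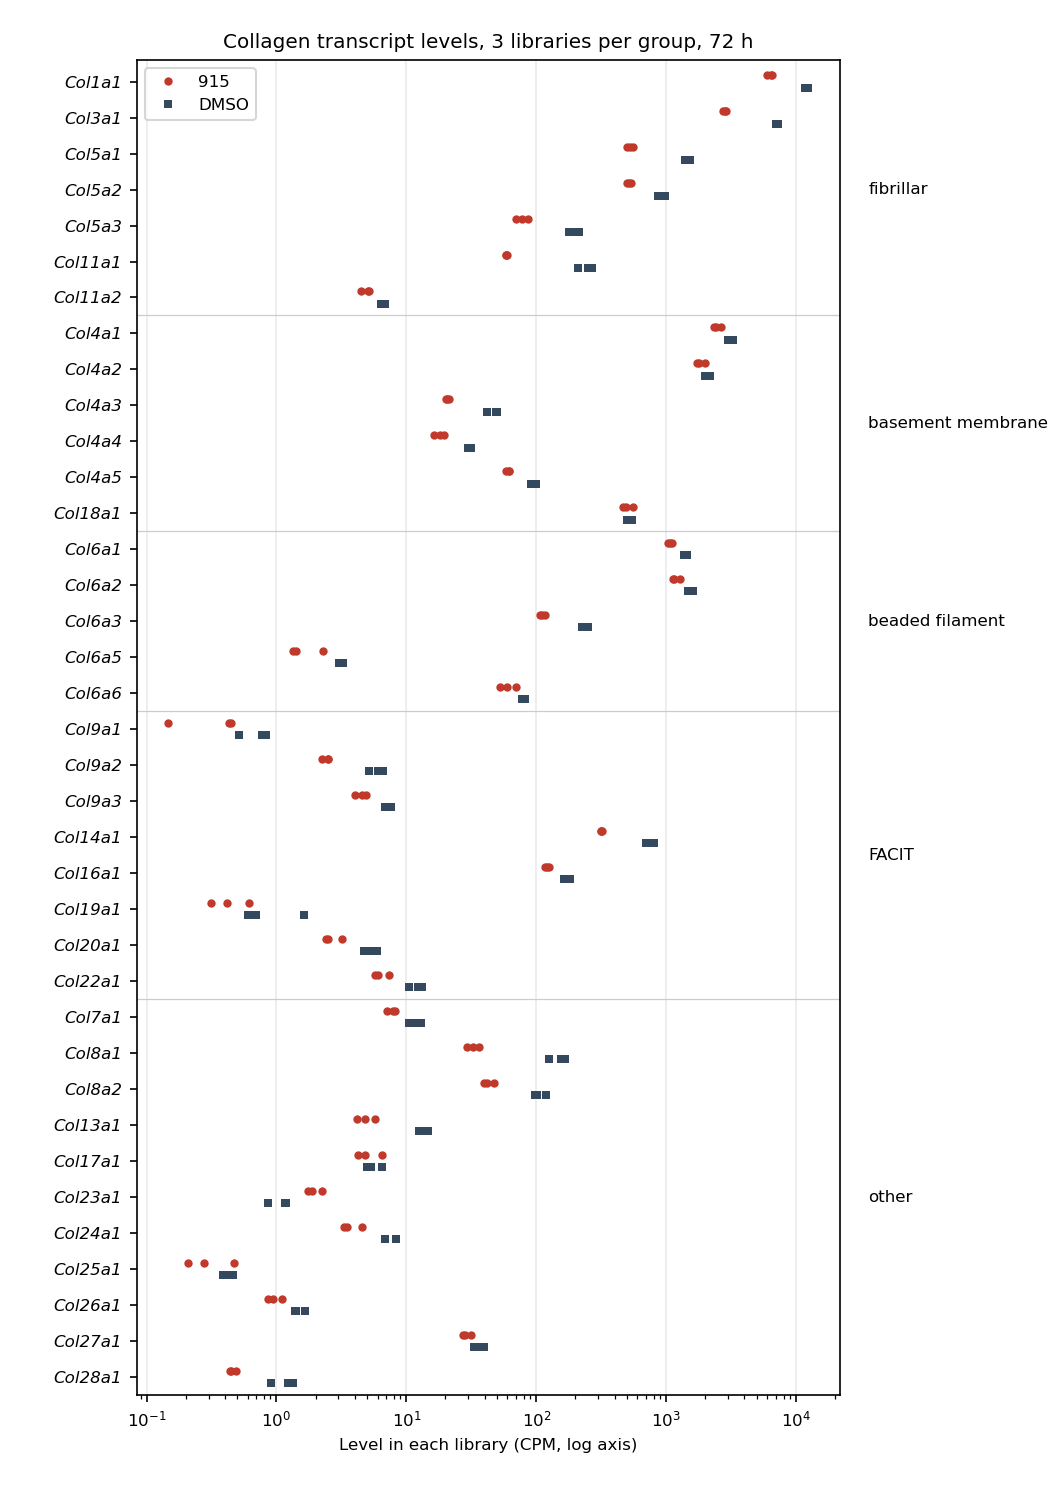
Level of each tested collagen gene in each library (CPM, log axis), 915 above DMSO within a row, grouped by class. The 3 libraries of each group lie close together for the abundant genes, such as Col1a1 at 5971 to 6461 CPM with 915 and 11731 to 12335 CPM with DMSO, and Col23a1 is the row in which the 915 points lie to the right.

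All 7 fibrillar collagen genes fell, with a median log2 fold change of -1.27. Col1a1 (ENSRNOG00000003897), the main chain of type I collagen, was at 6435, 5971 and 6461 CPM in 915 libraries 1 to 3 and 12335, 11731 and 11897 CPM in DMSO libraries 1 to 3. It fell 1.84-fold (log2 fold change -0.88 ± 0.0484 SE, edgeR adjusted p = 3.07e-09). The Col1a2 row, its partner chain, gave 2446, 2344 and 2497 CPM with 915 and 4583, 4380.2 and 4317 CPM with DMSO, 1.76-fold lower (log2 fold change -0.82 ± 0.0462 SE, edgeR adjusted p = 4.14e-09). In both genes the groups were well apart and the libraries within a group differed by a small fraction of the gap. In the later assembly GRCr8 other named genes overlap some collagen genes: Sgca overlaps Col1a1, Rpl29 overlaps Col6a4, Col6a5 and Col6a6, Chrna4 overlaps Col20a1, Mir711 overlaps Col7a1 and Mir455 overlaps Col27a1, and pseudogenes, tRNA genes or loci without a gene name overlap several more. Without a stated strand setting, reads of a shared stretch cannot be told apart.

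Col3a1 (ENSRNOG00000003357), whose product forms homotrimers that share fibrils with type I collagen, had 2847, 2726 and 2904 CPM with 915 and 7244, 7027 and 6932 CPM with DMSO. It fell 2.42-fold (log2 fold change -1.27 ± 0.0462 SE, edgeR adjusted p = 5.89e-11). Within each library Col3a1 counts were 0.449 ± 0.00704 of Col1a1 counts with 915 and 0.590 ± 0.00843 with DMSO (SD, n = 3 each), so Col3a1 moved further than Col1a1. Each such ratio was compared by a two-sided exact permutation test over the 6 libraries, which cannot go below p = 0.1 with 3 against 3, and Col3a1/Col1a1 reached that smallest p.

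Type V collagen starts fibril assembly and limits fibril width. Col5a1 (ENSRNOG00000008749) was counted at 526, 499.7 and 557 CPM with 915 and 1531, 1399 and 1456 CPM with DMSO, and fell 2.68-fold (log2 fold change -1.42 ± 0.0523 SE, edgeR adjusted p = 6.59e-11). Its usual partner Col5a2 (ENSRNOG00000003736) was at 519, 501 and 533 CPM with 915 and 972, 869 and 913 CPM with DMSO, a smaller fall of 1.71-fold (log2 fold change -0.78 ± 0.0492 SE, edgeR adjusted p = 1.29e-08). Col5a3 (ENSRNOG00000020525), an alternative chain of this type, was at 69.4, 77.4 and 85.8 CPM with 915 and 213, 179.7 and 189 CPM with DMSO (log2 fold change -1.27 ± 0.0753 SE, edgeR adjusted p = 6.46e-09). No library of 1 group reached into the other for any of these chains. The ratio of Col5a1 to Col5a2 counts was 1.02 ± 0.0246 with 915 and 1.59 ± 0.0178 with DMSO, and that of Col5a1 to Col1a1 was 0.0839 ± 0.00229 with 915 and 0.122 ± 0.00245 with DMSO. Both ratios separated the groups completely. Col5a3/Col5a1 overlapped between groups, at 0.147 ± 0.0129 with 915 and 0.132 ± 0.00570 with DMSO (exact permutation p = 0.2).

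Type XI collagen also starts fibrils and is best known from cartilage. Col11a1 (ENSRNOG00000023148) was at 58.6, 59.0 and 58.6 CPM with 915 and 267, 211 and 248 CPM with DMSO. It had the largest fall among the tested fibrillar genes, 3.98-fold (log2 fold change -1.99 ± 0.0702 SE, edgeR adjusted p = 4.22e-11), and its 915 libraries were nearly equal to each other. Col11a2 (ENSRNOG00000000463), at 4.91 ± 0.359 CPM with 915 and 6.50 ± 0.255 CPM with DMSO, fell 1.28-fold (edgeR adjusted p = 0.0259), a call that did not hold without 915 replicate 2 (adjusted p = 0.0778), DMSO replicate 1 (adjusted p = 0.0517) or DMSO replicate 2 (adjusted p = 0.0796), nor in DESeq2 (adjusted p = 0.0600). Counts of Col11a1 were 12.02 ± 0.966 times those of Col11a2 with 915 and 37.4 ± 5.65 times with DMSO, without overlap. The stretches before the RefSeq start sites of Col11a1 and Col1a2 are printed because these genes show the largest and a smaller fibrillar fall. They are the 250 bases upstream in build GRCr8, on the plus strand, at chr2:204508886-204509135 and chr4:33518307-33518556, 5′ to 3′. Capitals mark GGGCGG (a GC box), CCAAT and TATAAA on either strand, so that CCGCCC and ATTGG are their reverse complements.
Col11a1: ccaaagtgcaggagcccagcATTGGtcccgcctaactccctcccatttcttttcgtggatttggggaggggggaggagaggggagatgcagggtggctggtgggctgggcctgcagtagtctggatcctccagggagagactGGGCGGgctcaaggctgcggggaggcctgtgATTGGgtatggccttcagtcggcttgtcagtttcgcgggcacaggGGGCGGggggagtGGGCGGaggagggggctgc
Col1a2: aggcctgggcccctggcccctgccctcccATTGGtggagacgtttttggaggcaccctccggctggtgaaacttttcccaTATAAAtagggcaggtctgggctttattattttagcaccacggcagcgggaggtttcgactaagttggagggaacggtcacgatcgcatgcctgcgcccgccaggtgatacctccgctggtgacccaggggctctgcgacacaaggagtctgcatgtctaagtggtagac
The Col11a1 stretch holds 3 GC boxes and 2 CCAAT motifs, and the Col1a2 stretch 1 CCAAT and 1 TATAAA.

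**Figure D3:**
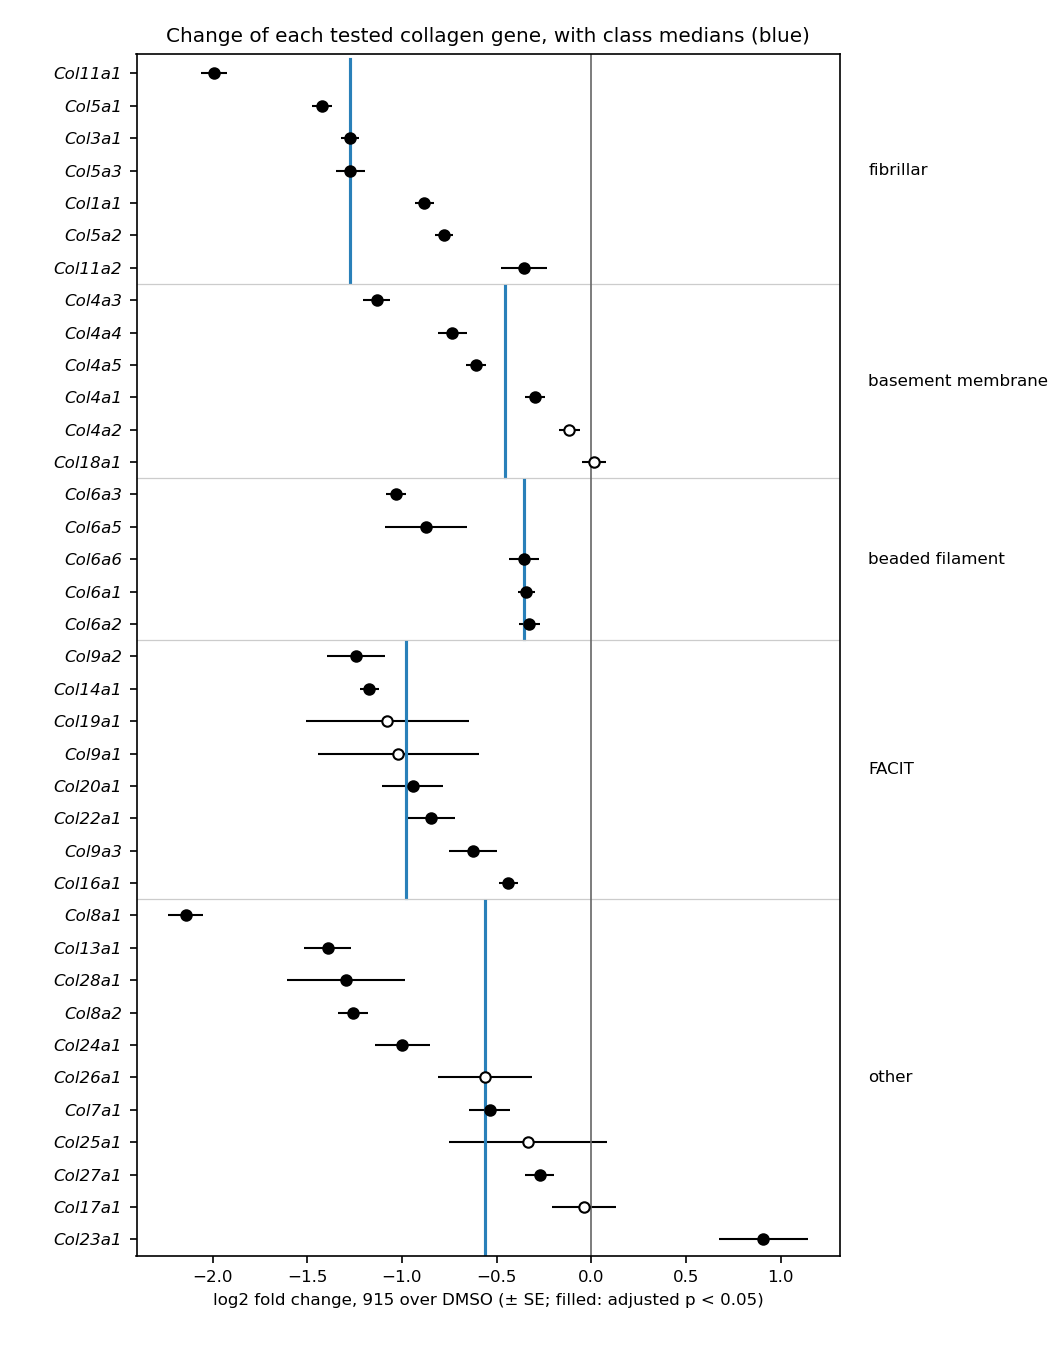
Log2 fold change (915 over DMSO) of each of the 37 tested collagen genes by class, with bars of 1 SE; filled points passed an adjusted p of 0.05 in edgeR and blue lines are class medians. All fibrillar and all tested collagen VI points lie below 0, the basement membrane points spread between -1.13 and 0.01, and Col23a1 is the filled point above 0.

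Basement membrane collagens changed unequally: 4 of 6 fell, with a median log2 fold change of -0.45. The common network of collagen IV is built from the products of Col4a1 and Col4a2. Col4a1 (ENSRNOG00000016281) was at 2424, 2317 and 2624 CPM with 915 and 3283, 3006 and 3081 CPM with DMSO, a fall of 1.23-fold (log2 fold change -0.30 ± 0.0537 SE, edgeR adjusted p = 3.59e-04). Col4a2 (ENSRNOG00000023972) did not pass, at 1799.5, 1730.4 and 1988 CPM with 915 and 2159, 1970.3 and 2055 CPM with DMSO (log2 fold change -0.12 ± 0.0557 SE, edgeR adjusted p = 0.101), and 915 library 3 lay above DMSO library 2. The call for Col4a2 depended on scaling and on single libraries: it passed with library totals alone (adjusted p = 0.0173), without 915 replicate 3 (adjusted p = 0.0105) and without DMSO replicate 2 (adjusted p = 0.0382). The ratio of Col4a1 to Col4a2 counts does not depend on scaling and was 1.34 ± 0.0139 with 915 and 1.52 ± 0.0142 with DMSO, without overlap.

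The less common collagen IV network, known from the kidney filter, uses the alpha 3, 4 and 5 chains, and all their genes fell. Col4a3 (ENSRNOG00000015365) was at 20.6, 21.2 and 20.3 CPM with 915 and 49.6, 42.0 and 49.3 CPM with DMSO, 2.19-fold lower (log2 fold change -1.13 ± 0.0720 SE, edgeR adjusted p = 1.34e-08). Col4a4 (ENSRNOG00000014851) was at 19.4, 18.1 and 16.4 CPM with 915 and 31.4, 29.7 and 31.5 CPM with DMSO, 1.66-fold lower (edgeR adjusted p = 1.63e-06). Col4a5 (ENSRNOG00000018951) was at 58.6, 62.0 and 61.4 CPM with 915 and 100.3, 90.8 and 96.1 CPM with DMSO, 1.52-fold lower (edgeR adjusted p = 4.18e-07). The libraries of each group stayed close together in all 3 genes. The ratio of Col4a3 to Col4a4 counts was 1.16 ± 0.0859 with 915 and 1.52 ± 0.0911 with DMSO.

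Collagen IV genes lie in head-to-head pairs that share the stretch between their starts, and members of both tested pairs changed by different amounts. In GRCr8 the starts of Col4a1 and Col4a2 are separated by 76 bases and those of Col4a3 and Col4a4 by 412 bases. The whole stretch between Col4a2 and Col4a1 (chr16:84885521-84885596, plus strand, running towards Col4a1) and the 250 bases before Col4a3 (chr9:91323740-91323989, plus strand) follow, with GC boxes in capitals, and each holds 1.
Col4a2-Col4a1: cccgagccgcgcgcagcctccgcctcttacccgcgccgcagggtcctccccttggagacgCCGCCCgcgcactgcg
Col4a3: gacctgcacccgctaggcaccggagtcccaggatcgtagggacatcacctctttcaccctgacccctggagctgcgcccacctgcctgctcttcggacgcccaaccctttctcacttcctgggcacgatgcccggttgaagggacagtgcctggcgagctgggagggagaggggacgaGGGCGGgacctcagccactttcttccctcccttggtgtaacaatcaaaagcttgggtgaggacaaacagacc

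Col18a1 (ENSRNOG00000001229), a basement membrane proteoglycan core whose end fragment is endostatin, did not pass. It was at 487, 468 and 556 CPM with 915 and 546, 506 and 496 CPM with DMSO, so the groups overlapped (log2 fold change 0.01 ± 0.0622 SE, edgeR adjusted p = 0.865). The sign of that value turned with other scalings. A row described as a chain like that of type XV collagen (LOC108348074), outside the symbol rule, was at 60.0, 61.7 and 72.3 CPM with 915 and 82.3, 78.6 and 81.6 CPM with DMSO (log2 fold change -0.27 ± 0.0677 SE, edgeR adjusted p = 0.00403). A row described as like a type IV chain (LOC100911572) held 1 count in all and was not tested.

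All 5 tested collagen VI genes fell, with a median log2 fold change of -0.36. Col6a1 (ENSRNOG00000001249) was at 1062, 1038 and 1109 CPM with 915 and 1456, 1386 and 1368 CPM with DMSO, 1.27-fold lower (log2 fold change -0.34 ± 0.0460 SE, edgeR adjusted p = 2.62e-05). Its partner Col6a2 (ENSRNOG00000001254) was at 1152, 1119 and 1267 CPM with 915 and 1597, 1535 and 1461 CPM with DMSO, 1.25-fold lower (edgeR adjusted p = 1.83e-04). The ratio of Col6a1 to Col6a2 counts was 0.908 ± 0.0288 with 915 and 0.917 ± 0.0171 with DMSO, with overlapping libraries (exact permutation p = 0.8). Col6a3 (ENSRNOG00000019648), the large partner of both, was at 106, 110.1 and 117 CPM with 915 and 249, 226 and 228 CPM with DMSO, 2.04-fold lower (log2 fold change -1.03 ± 0.0537 SE, edgeR adjusted p = 1.91e-09). Its row is annotated as a processed transcript, while those of Col6a1 and Col6a2 are annotated as protein coding. How much of the coding gene the Col6a3 row covers was not checked. The ratio of Col6a3 to Col6a1 counts was 0.104 ± 0.00340 with 915 and 0.167 ± 0.00406 with DMSO, without overlap. Col6a5 and Col6a6 encode chains that can take the place of the third chain. Col6a6 (ENSRNOG00000023007) was at 52.3, 69.7 and 59.9 CPM with 915 and 80.4, 77.7 and 82.6 CPM with DMSO, 1.28-fold lower (edgeR adjusted p = 0.00224), with the 915 libraries more spread than the DMSO libraries. Col6a5 was at 1.67 ± 0.517 CPM with 915 and 3.13 ± 0.107 CPM with DMSO (1.83-fold lower, edgeR adjusted p = 0.00398). Col6a4 held 13 counts over the 915 libraries and 31 over the DMSO libraries and was not tested.

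**Figure D4:**
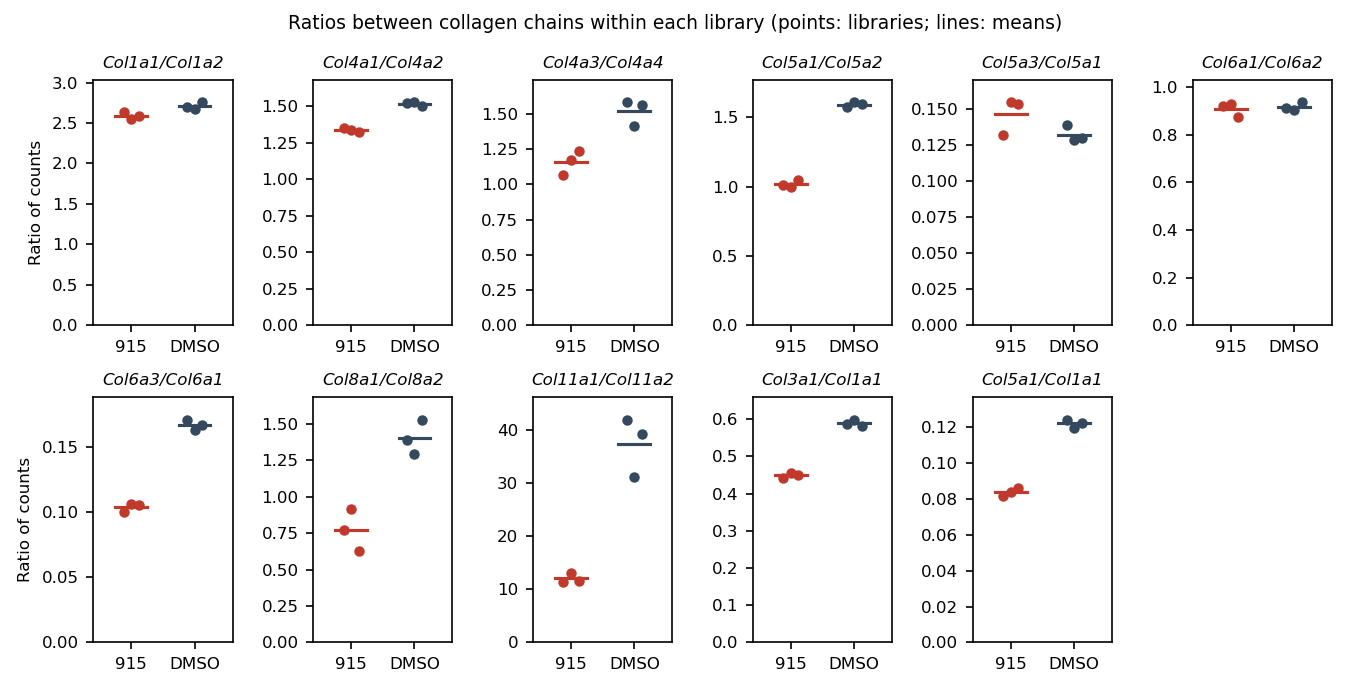
Ratio of the counts of chain pairs within each library, 915 left and DMSO right; points are libraries and lines means, and each axis starts at 0. In 9 of the 11 pairs every 915 ratio lies below every DMSO ratio, from a mean of 12.02 with 915 and 37.4 with DMSO for Col11a1/Col11a2 to 2.59 with 915 and 2.71 with DMSO for Col1a1/Col1a2, while Col6a1/Col6a2 and Col5a3/Col5a1 overlap.

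Chains that assemble in a shared molecule or fibril thus often changed by unequal amounts. Of 11 pairs compared, 9 had all 915 ratios below all DMSO ratios, each at the smallest exact two-sided permutation p that 3 against 3 libraries allow (0.1; 0.122 with Benjamini-Hochberg adjustment over the 11 pairs), so none could pass 0.05. The smallest of these shifts was Col1a1/Col1a2, at 2.63, 2.55 and 2.59 with 915 and 2.69, 2.68 and 2.76 with DMSO. The type I chains therefore changed nearly together. Pairs of Col4a5 with Col4a6 and of Col9a1 with Col9a2 were not compared, because Col4a6 was not analysed here and Col9a1 averaged under 1 CPM.

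Of 8 FACIT genes 6 fell, with a median log2 fold change of -0.98. Col14a1 (ENSRNOG00000026415), which binds the surface of type I fibrils, was at 317, 321 and 314 CPM with 915 and 799.9, 696 and 723 CPM with DMSO, 2.25-fold lower (log2 fold change -1.17 ± 0.0513 SE, edgeR adjusted p = 3.48e-10). Its 915 libraries were nearly equal and far below the DMSO libraries. Col16a1 (ENSRNOG00000031475), a FACIT of several connective tissues, was at 117, 121 and 124 CPM with 915 and 182, 163 and 164 CPM with DMSO, 1.35-fold lower (log2 fold change -0.44 ± 0.0521 SE, edgeR adjusted p = 8.29e-06). The other 4 that fell were counted at 13.1 CPM or less in every library. They were Col9a2 (2.41 ± 0.154 CPM with 915 and 5.92 ± 0.754 CPM with DMSO) and Col9a3 (4.49 ± 0.442 CPM with 915 and 7.16 ± 0.417 CPM with DMSO), both chains of a cartilage collagen, Col20a1 (2.69 ± 0.424 CPM with 915 and 5.33 ± 0.589 CPM with DMSO), and Col22a1 (6.39 ± 0.864 CPM with 915 and 11.9 ± 1.39 CPM with DMSO), known from tissue junctions such as muscle to tendon. Their folds lay between 1.54-fold and 2.37-fold lower, with edgeR adjusted p between 9.04e-04 and 1.07e-05. Col9a1 (0.340 ± 0.167 CPM with 915 and 0.706 ± 0.171 CPM with DMSO, edgeR adjusted p = 0.0611) and Col19a1 (0.448 ± 0.151 CPM with 915 and 0.974 ± 0.561 CPM with DMSO, edgeR adjusted p = 0.0516) did not pass. At 37 and 49 counts over the 915 libraries, these genes were too sparse for a firm statement, and Col19a1 passed without 915 replicate 2 (adjusted p = 0.0416), DMSO replicate 1 (adjusted p = 0.0306) or DMSO replicate 2 (adjusted p = 0.0331).

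The 12 remaining genes covered short-chain, anchoring, transmembrane and late fibrillar collagens, and 7 of the 11 tested fell, with a median log2 fold change of -0.56. Type VIII collagen forms open networks and is known from vessel walls. Col8a1 (ENSRNOG00000039668) had the largest fall of all tested collagen genes, 4.41-fold, with 32.4, 36.1 and 29.5 CPM in 915 libraries and 165, 126 and 155 CPM in DMSO libraries (log2 fold change -2.14 ± 0.0920 SE, edgeR adjusted p = 3.06e-10). Its partner Col8a2 (ENSRNOG00000010841) was at 41.9, 39.3 and 46.9 CPM with 915 and 119, 97.3 and 101 CPM with DMSO, 2.39-fold lower (log2 fold change -1.26 ± 0.0782 SE, edgeR adjusted p = 1.09e-08). The ratio of Col8a1 to Col8a2 counts was 0.773 ± 0.144 with 915 and 1.41 ± 0.119 with DMSO, without overlap. Col27a1 (ENSRNOG00000007657), a fibrillar-type chain, was at 27.3, 28.5 and 31.5 CPM with 915 and 39.6, 32.9 and 36.7 CPM with DMSO, 1.21-fold lower (edgeR adjusted p = 0.00937), and its call was lost without 915 replicate 1 or without DMSO replicate 1 (adjusted p = 0.0577 in both). Col24a1, another fibrillar-type chain, was 2.00-fold lower, at 3.78 ± 0.656 CPM with 915 and 7.85 ± 0.853 CPM with DMSO (edgeR adjusted p = 5.90e-05). Col7a1, the anchoring fibril collagen, was 1.45-fold lower, at 7.70 ± 0.581 CPM with 915 and 11.6 ± 1.20 CPM with DMSO (edgeR adjusted p = 8.02e-04). Col28a1, at 0.459 ± 0.0262 CPM with 915 and 1.16 ± 0.227 CPM with DMSO, fell as well (edgeR adjusted p = 0.00328), on 51 counts with 915 and 145 with DMSO.

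Among the transmembrane collagens the directions differed. Col13a1, known from the neuromuscular junction, fell 2.63-fold, at 4.90 ± 0.776 CPM with 915 and 13.3 ± 1.20 CPM with DMSO (edgeR adjusted p = 4.69e-07). Col23a1 (ENSRNOG00000003349) rose, at 2.22, 1.74 and 1.87 CPM in 915 libraries and 1.19, 0.867 and 1.16 CPM in DMSO libraries, which is 1.88-fold higher (log2 fold change 0.91 ± 0.236 SE, edgeR adjusted p = 0.00537). All its 915 libraries lay above all its DMSO libraries, at low levels of 218 counts over the 915 libraries and 133 over the DMSO libraries. A second row with the symbol Col23a1 (ENSRNOG00000046785) held 2 counts, in DMSO library 1, and was not tested. Col17a1, a hemidesmosome collagen, did not pass, at 5.21 ± 1.19 CPM with 915 and 5.57 ± 0.791 CPM with DMSO (edgeR adjusted p = 0.864), nor did Col25a1 at 0.317 ± 0.134 CPM with 915 and 0.419 ± 0.0417 CPM with DMSO (edgeR adjusted p = 0.535). Col26a1, a secreted collagen of another kind, was at 0.968 ± 0.128 CPM with 915 and 1.49 ± 0.137 CPM with DMSO and did not pass (edgeR adjusted p = 0.0754). The stretches before Col8a1 and Col23a1, the ends of the range of collagen changes, are the 250 bases upstream in GRCr8 at chr11:56246532-56246781 and chr10:36050077-36050326, both on the plus strand, with GC boxes in capitals.
Col8a1: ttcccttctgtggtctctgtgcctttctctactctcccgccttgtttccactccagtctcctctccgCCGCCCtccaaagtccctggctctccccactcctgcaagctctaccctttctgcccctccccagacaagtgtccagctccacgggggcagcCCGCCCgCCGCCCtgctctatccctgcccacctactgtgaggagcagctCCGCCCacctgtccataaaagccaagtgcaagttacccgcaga
Col23a1: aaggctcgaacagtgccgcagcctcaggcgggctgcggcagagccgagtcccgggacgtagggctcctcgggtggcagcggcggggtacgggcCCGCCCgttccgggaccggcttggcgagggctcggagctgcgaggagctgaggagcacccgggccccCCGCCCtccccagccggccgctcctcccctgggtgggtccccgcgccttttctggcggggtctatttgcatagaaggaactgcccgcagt
The Col8a1 stretch holds 4 GC boxes and the Col23a1 stretch 2, and any part of this motif in the changes was not tested.

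RefSeq promoter entries were found for 31 of the collagen genes, each from 250 bases before to 50 bases after the start. There was no entry for Col1a1, Col3a1, Col6a2, Col9a3, Col14a1, Col22a1 and Col25a1. Col1a2, outside the symbol rule, was not counted, so the shares leave out abundant fibrillar genes. A gene was counted if any of its promoter entries held the motif. GGGCGG was found for 58.1% of the 31 collagen genes and 33.5% of the 27457 genes with entries. CCAAT was found for 29.0% of these collagen genes and 36.1% of all genes with entries. TATAAA was found for 6.45% of these collagen genes and 14.1% of all genes with entries. The letters AAGGTCA, the core of the ERR response element, were found for 1 collagen gene (Col7a1, 3.23% of those matched) and 4.17% of all genes with entries. The longer TCAAGGTCA, which contains AAGGTCA, was found for none of these collagen genes and 0.397% of all genes with entries. Both strands of the 250 bases before the start were searched, not the 50 bases after it, and these matches describe letters in that short window only.

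The enzymes that build collagen fell in part. Of 17 measured genes of procollagen modification and folding 8 fell, 1 rose and 8 did not pass, with a median log2 fold change of -0.17. P4ha3, a catalytic subunit of prolyl 4-hydroxylase, was at 7.89 ± 0.536 CPM with 915 and 32.2 ± 3.24 CPM with DMSO, 3.94-fold lower (edgeR adjusted p = 4.87e-10). Creb3l1, a transcription factor known to drive Col1a1 in bone, was at 122 ± 6.54 CPM with 915 and 237 ± 3.58 CPM with DMSO, 1.88-fold lower (edgeR adjusted p = 3.78e-09). Plod2, the lysyl hydroxylase of collagen telopeptides, was 1.87-fold lower, at 110.3 ± 4.23 CPM with 915 and 213 ± 17.2 CPM with DMSO (edgeR adjusted p = 1.58e-08). The gene that rose, named after its values were seen, was P4hb (978 ± 36.6 CPM with 915 and 934 ± 10.7 CPM with DMSO, edgeR adjusted p = 0.0487), and no gene of this list rose under 10 of 14 alternative settings. The count that fell was 12 in place of 8 with library totals alone and with the totals of the CPM table. With these scalings the genes called lower among all 14253 tested also rose, from 3636 to 4285 and 4192.

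Of 10 genes of procollagen cleavage and crosslinking 8 fell and 1 rose, with a median log2 fold change of -0.74. Lox, the lysyl oxidase that starts crosslinking, was at 80.6, 71.6 and 83.1 CPM with 915 and 254, 205 and 229.8 CPM with DMSO, 2.83-fold lower (log2 fold change -1.50 ± 0.0738 SE, edgeR adjusted p = 1.05e-09). Its relative Loxl2 was at 86.8 ± 0.466 CPM with 915 and 184 ± 9.25 CPM with DMSO, 2.05-fold lower (edgeR adjusted p = 7.66e-10). Pcolce, which speeds removal of the procollagen C-propeptide, was 1.69-fold lower, at 551 ± 33.9 CPM with 915 and 966 ± 20.7 CPM with DMSO (edgeR adjusted p = 2.26e-08). Loxl4, named after its values were seen, rose 1.38-fold (21.2 ± 2.14 CPM with 915 and 15.9 ± 1.03 CPM with DMSO, edgeR adjusted p = 5.32e-04).

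Of 15 proteins that bind collagen fibrils or basement membranes 12 fell at the transcript level and 1 rose, with a median log2 fold change of -0.55. Nid1 and Nid2, the nidogens that link collagen IV to laminin, fell 2.46-fold and 2.45-fold. Nid1 was at 314 ± 19.2 CPM with 915 and 797 ± 38.1 CPM with DMSO (edgeR adjusted p = 1.81e-10), and Nid2 at 74.2 ± 0.836 CPM with 915 and 188 ± 2.51 CPM with DMSO (edgeR adjusted p = 4.22e-11). Thbs1, thrombospondin, was 2.30-fold lower, at 256 ± 4.49 CPM with 915 and 610.2 ± 52.6 CPM with DMSO (edgeR adjusted p = 5.50e-10). The gene that rose, named after its values were seen, was Dcn, the proteoglycan decorin that coats type I fibrils, at 483 ± 13.7 CPM with 915 and 357 ± 8.26 CPM with DMSO (log2 fold change 0.48 ± 0.0444 SE, edgeR adjusted p = 6.37e-07). Dcn is also on the fibroblast marker list, as are Lum and Postn.

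Collagenases, their inhibitors and other genes of collagen breakdown went both ways: 6 of 13 rose and 5 fell, with a median log2 fold change of 0.11. Mmp3, a metalloproteinase that activates collagenases, was at 8.24, 6.88 and 7.63 CPM with 915 and 1.49, 1.69 and 1.57 CPM with DMSO, 4.96-fold higher (log2 fold change 2.31 ± 0.150 SE, edgeR adjusted p = 1.67e-08). Mmp9, a gelatinase, was at 13.2 ± 0.608 CPM with 915 and 5.83 ± 0.103 CPM with DMSO, 2.35-fold higher (edgeR adjusted p = 1.27e-07). Timp3, a matrix-bound inhibitor of such enzymes, was at 94.7 ± 1.44 CPM with 915 and 192 ± 13.3 CPM with DMSO, 1.96-fold lower (edgeR adjusted p = 2.79e-09). The ends of this list, named after their values were seen, were Mmp13 and Mmp8, both on few counts. Mmp13 was at 0.881 ± 0.192 CPM with 915 and 0.0830 ± 0.106 CPM with DMSO (edgeR adjusted p = 2.85e-04). Mmp8 was at 0.263 ± 0.0805 CPM with 915 and 1.02 ± 0.0963 CPM with DMSO (edgeR adjusted p = 5.59e-04).

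**Figure D5:**
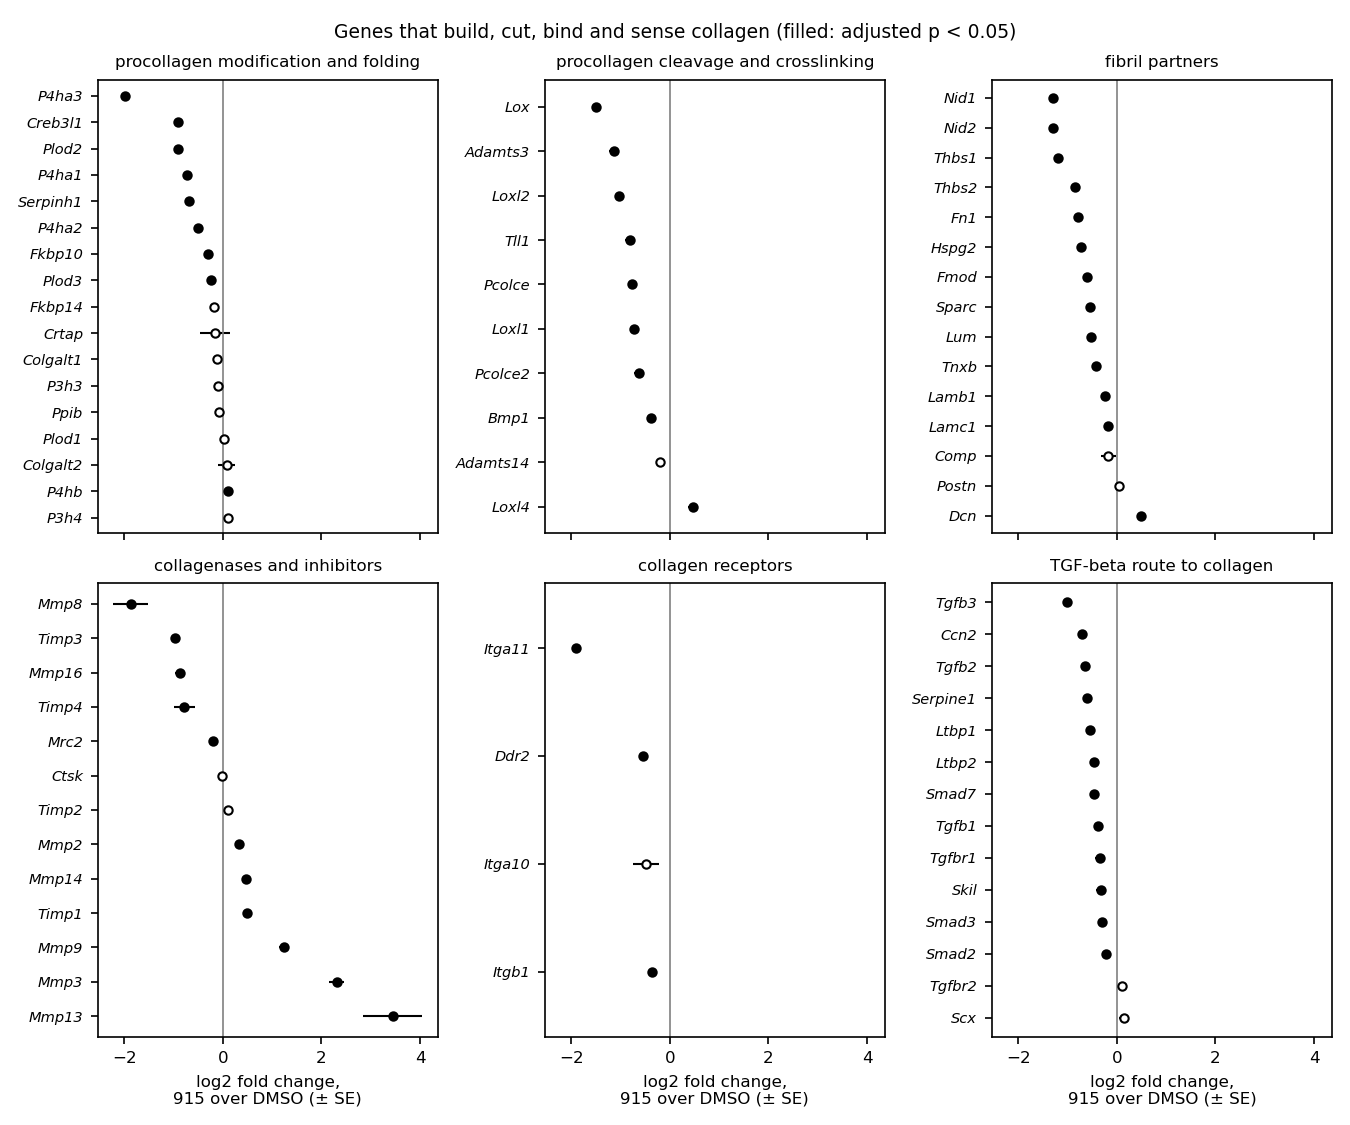
Log2 fold change (915 over DMSO, with bars of 1 SE) of the tested genes that build, cut, bind, break down and sense collagen, and of the TGF-beta route; filled points passed an adjusted p of 0.05 in edgeR. The panels on cleavage and crosslinking, fibril partners and the TGF-beta route lie mostly below 0. The collagenase panel spreads to both sides, from Mmp8 at -1.87 to Mmp13 at 3.45, with Mmp3 at 2.31 and Timp3 at -0.97.

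Of 4 collagen receptor genes tested 3 fell and none rose. Itga11, the integrin chain that binds type I collagen on fibroblasts, was at 17.9, 15.8 and 15.3 CPM with 915 and 67.0, 59.2 and 64.3 CPM with DMSO, 3.75-fold lower (log2 fold change -1.91 ± 0.0733 SE, edgeR adjusted p = 1.07e-10). Its partner Itgb1 was 1.28-fold lower, at 942 ± 12.7 CPM with 915 and 1249 ± 50.9 CPM with DMSO (edgeR adjusted p = 1.28e-05). Ddr2, a collagen-activated tyrosine kinase that is also on the fibroblast list, was 1.46-fold lower, at 117 ± 3.99 CPM with 915 and 177 ± 6.02 CPM with DMSO (edgeR adjusted p = 3.72e-07). The integrin chain gene Itga10 did not pass, at 1.24 ± 0.370 CPM with 915 and 1.77 ± 0.310 CPM with DMSO, and Gp6, the platelet collagen receptor, was at 0 counts in every library.

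On the TGF-beta route to collagen 12 of 14 genes fell and none rose, with a median log2 fold change of -0.42. Among those that fell were the inhibitor genes Smad7 (log2 fold change -0.46) and Skil (log2 fold change -0.33). The count therefore does not tell how active the route was. The ligand gene Tgfb3 was at 85.8 ± 1.49 CPM with 915 and 179 ± 5.03 CPM with DMSO, 2.02-fold lower (edgeR adjusted p = 5.04e-10). Ltbp1, which holds latent TGF-beta in the matrix, was 1.46-fold lower, at 107 ± 2.02 CPM with 915 and 161 ± 5.08 CPM with DMSO (edgeR adjusted p = 2.89e-07). Ccn2, a matricellular target of the route, was 1.63-fold lower, at 500.0 ± 28.8 CPM with 915 and 841 ± 28.4 CPM with DMSO (edgeR adjusted p = 4.24e-08). The receptor gene Tgfbr2 (132 ± 1.92 CPM with 915 and 127 ± 3.38 CPM with DMSO) and the transcription factor gene Scx (22.5 ± 3.96 CPM with 915 and 21.1 ± 1.47 CPM with DMSO) did not pass. These lists were written from textbook roles, and their counts stand beside the 25.5% of all genes that fell and the 24.3% that rose.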

How the data were processed

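Total RNA of 3 cultures with 915 and 3 with DMSO was sequenced on an Illumina instrument, per the labels' protocols. The deposited counts were made by the authors with STAR 2.5.1a, featureCounts 1.4.6-p5 and build Rnor_6.0, per the submitters' processing notes; the strand setting is not given in the sources used here. Of 22641 rows, 993 repeated an Ensembl identifier with equal counts and were dropped. The deposited CPM values are those counts divided by a library total that exceeds the sum of the table, which holds 93.1% to 93.7% of it. At these depths 3 counts equal 0.0698 to 0.0917 CPM, a limit that covers counting error alone.

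The whole table was fitted with edgeR 4.0.16 in R 4.3.3 (filterByExpr, TMM, quasi-likelihood test on group, two-sided, Benjamini-Hochberg over 14253 genes, threshold 0.05), a procedure tested on simulated data. The biological coefficient of variation was 6.84%. No library was a copy of another: within groups, chi-square per degree of freedom was 5.45 to 11.6 over genes. Ratios of partner chains, with both chains at a mean of at least 1 CPM, were compared by exact permutation tests in scipy 1.17.1. DESeq2 1.42.0, other scalings and filters, a replicate block and each library left out were alternatives.

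The members, the 14 lists (136 of 153 entries matched a row) and the tests were chosen with earlier results of these data known. All tested collagen genes are named, with every library shown for those that passed at a mean of at least 20 CPM or rose, and at most 3 genes per list with the smallest p. Promoters and gene overlaps come from RefSeq tables of build GRCr8. No genome, gene lengths or protein sequences were used.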

Additional observations from a re-analysis of the deposited data

How the results depend on the processing

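Over 14 alternative settings, 28 to 32 collagen genes were lower and 1 was higher. DESeq2 gave 28 lower, and library totals without TMM gave 32. Without TMM the genes called lower among all 14253 tested also rose, from 3636 to 4285. With a replicate block 28 were lower and 1 higher, and Col11a2 lost its call (adjusted p = 0.0532). Same-numbered libraries did not deviate together (correlations -0.034, -0.111 and -0.0896), so the numbers were not taken as pairs. The median log2 fold change of the collagen genes was -0.77 to -0.87 when 1 library was left out. The log2 fold change of Col18a1 turned to -0.043 with library totals alone, -0.035 with the totals of the CPM table and -0.0084 with upper-quartile scaling, and ran from -0.065 to 0.067 with 1 library left out. That of Col17a1 ran from -0.24 to 0.088 with 1 library left out. Of 57 genes checked, 49 kept their direction and side of the threshold under every alternative that tested them. These 57 were the tested collagen rows and the genes with the smallest p of each list other than the markers. Other named genes, such as the markers and P4hb, were not among them. A filter at a mean of 1 CPM left Col9a1, Col19a1, Col25a1 and Col28a1 untested, so the lower call of Col28a1 had no value there. Col4a2, Col9a1, Col19a1 and Col26a1 passed under some settings, and Col11a2 and Col27a1 lost their calls under some; the cause was not tested. With 3 libraries a group no exact permutation test can go below 0.1, and collagen genes under 1 CPM rest on few counts.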
